A study of Mus musculus with 2 samples.

Results

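The genes described here are the 9 enzymes of serine synthesis and of the folate-bound 1-carbon cycle: Phgdh, Psat1, Psph, Shmt1, Shmt2, Mthfd1, Mthfd2, Mthfd1l and Aldh1l1. They were found by the gene name printed beside each probe in the scanner files, which gave 14 non-control probes, 2 for each of 5 genes and 1 for each of 4. The array carries 34797 gene names in all. Each of the 14 probes also listed a RefSeq transcript of the same gene, and no probe under another name did.

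The samples were skeletal muscle RNA from CD2F1/Slc mice, male and 11 weeks old, hybridised to 2 single-colour Agilent arrays. The control array holds muscle RNA after an injection of PBS without cells. The C26 array holds muscle RNA after 1000000 colon 26 carcinoma cells in 100 µL of PBS had been placed under the skin of the flank, a transplanted tumour used to study cachexia, the loss of muscle and fat seen with some tumours; the labels call this muscle cachectic. The sources used here do not give the muscle sampled, the time after implantation, or whether RNA of several animals was pooled. With 1 array per group there is no replicate and no test, so every difference below describes this pair of arrays. In whole muscle, fewer cells of a type and less RNA per cell cannot be told apart.

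Serine is made from the glycolytic intermediate 3-phosphoglycerate in 3 steps, catalysed in turn by Phgdh (a dehydrogenase and the entry to the pathway), Psat1 (an aminotransferase) and Psph (a phosphatase). Serine hydroxymethyltransferases, Shmt1 in the cytosol and Shmt2 in mitochondria, pass a carbon unit from serine to tetrahydrofolate and leave glycine. Enzymes of both compartments then interconvert the folate forms, which feed purine, thymidylate and methionine synthesis. Several of these genes, among them Phgdh, Psat1, Shmt2 and Mthfd2, are known targets of the stress-response factor ATF4 in other cells.

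The probes are 60-base oligonucleotides, and 7 of the 14 are shown because the results compare probes of the same gene (Phgdh, Psat1, Psph and Shmt1) or related genes (Mthfd1 and Mthfd1l). They are written 5′ to 3′, with the start position in the transcript that the files list and the genomic position on mm9. The exon or UTR they fall in was not analysed here.
Phgdh, position 1603, chr3:98117303-98117361, minus strand: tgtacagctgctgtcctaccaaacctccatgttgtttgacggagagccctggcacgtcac
Psat1, position 750, chr19:15991586-15991645, minus strand: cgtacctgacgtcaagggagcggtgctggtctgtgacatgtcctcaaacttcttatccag
Psph, position 1123, chr5:130272308-130272367, minus strand: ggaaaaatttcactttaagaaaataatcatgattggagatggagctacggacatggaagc
Shmt1, position 394, chr11:60620453-60620512, minus strand: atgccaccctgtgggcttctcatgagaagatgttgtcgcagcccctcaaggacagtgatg
Shmt1, position 1584, chr11:60603099-60603158, minus strand: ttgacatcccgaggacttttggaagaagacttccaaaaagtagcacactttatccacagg
Mthfd1, position 3018, chr12:77418622-77418681, plus strand: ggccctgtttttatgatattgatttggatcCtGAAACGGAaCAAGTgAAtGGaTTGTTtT
Mthfd1l, position 3081, chr10:6198416-6198475, minus strand: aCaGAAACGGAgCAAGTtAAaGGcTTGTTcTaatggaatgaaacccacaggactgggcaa
Capitals in the last pair mark bases shared by Mthfd1 and its mitochondrial relative Mthfd1l. In the best ungapped alignment of these probes, 24 of 31 overlapping bases are identical (77.4%), so the shared stretch is short and interrupted. Whether either probe also captures the other transcript was not tested.

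Levels are given as the scanner's processed signal on a linear scale, with the scanner software's own error, which covers no spread between animals. For bright probes this error came close to a fixed share of the signal, and the error of the log2 ratio was 0.204 for both Mthfd1 and Acta1. Counts of errors are therefore close to fixed fold limits for such probes, and do not measure the scatter of repeat spots. Each of the 14 member probes had 1 spot per array. Ratios were taken after each array was divided by its 75th percentile, 262.3 for control and 249.5 for C26, so a scaled ratio is 1.05 times the ratio of the signals. No spot was saturated, and the scanner called 50.4% (control) and 53.8% (C26) of non-control spots well above background. For scale, the middle 50% of the 26781 probes well above background on both arrays had log2 ratios between -0.15 and 0.23, with a median of 0.04. Muscle-defining genes were present on both arrays, and the 7 examined (Acta1, Ckm, Mb, Tnnt3, Tnnc2, Myh4 and Mylpf) had log2 ratios between -0.32 and 0.14.

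Of the 14 probes, 13 were well above background on both arrays, and by their brightest probe all 9 genes were measured. None of the 13 was 2-fold different, against 2.3% of all measured probes. The Mthfd1l probe at position 3519 was the 1 probe past 1.5-fold, higher in C26, against 4.48% of all measured probes higher and 9.33% in either direction. It was also the 1 probe whose log2 ratio exceeded 2 scanner errors, against 15.6% of all measured probes. Of the 13 probes, 8 were above 0, against 56.2% of all measured probes. By brightest probe, 5 genes were above 0 and 4 below, against 56.4% of 19682 measured genes above 0.

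Within serine synthesis the first and last enzymes had opposite signs. The brighter Phgdh probe, at position 1690 (chr3:98117215-98117274), gave 396.2 ± 39.9 in control and 464.5 ± 46.6 in C26. Its log2 ratio was 0.30 with an error of 0.21, which is 1.23-fold higher in C26. The other Phgdh probe, at position 1603, gave 236.2 ± 24.1 and 295.6 ± 29.7, a log2 ratio of 0.40 with an error of 0.21. Both Phgdh probes were thus brighter on the C26 array, by less than 2 errors each.

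Psat1, which makes phosphoserine, was slightly higher in C26. Its probe at position 2226 (chr19:15979622-15979681) gave 120.5 ± 12.9 in control and 136.6 ± 14.0 in C26, a log2 ratio of 0.25 with an error of 0.21. The probe at position 750, printed above, was well above background on the C26 array (22.8 ± 4.19) but not on the control array (21.8 ± 5.33). Its log2 ratio was 0.14 with an error of 0.44, so it gives no direction. The difference at this probe lay within the error of either array.

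Psph, which releases free serine, was lower in C26 with both probes. The probe at position 1470 (chr5:130271441-130271500) gave 1333 ± 133 in control and 1005 ± 101 in C26, a log2 ratio of -0.33 with an error of 0.20, or 1.26-fold lower. The probe at position 1123 gave 462.5 ± 46.5 and 361.0 ± 36.3, a log2 ratio of -0.28 with an error of 0.21. Phgdh and Psph therefore differed in direction with all 4 of their probes, under every scaling and background correction tried.

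**Figure D1:**
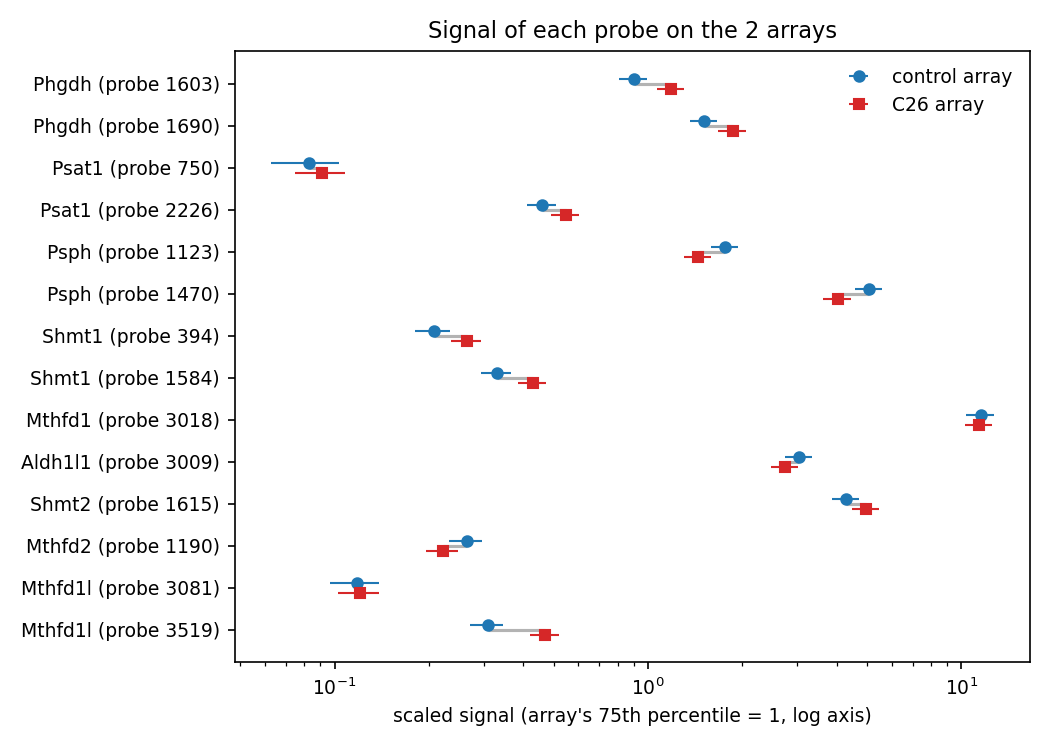
Scaled signal of the 14 probes (log axis, each array's 75th percentile set to 1) in control (circles) and C26 (squares), with scanner errors as bars, probes numbered by transcript position. Both Phgdh and both Shmt1 probes lie to the right in C26 and both Psph probes to the left, and the largest gap among the 13 measured probes is that of the Mthfd1l probe at position 3519.

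In the cytosol, Shmt1 stood highest. Its probe at position 1584 gave 86.3 ± 9.60 in control and 107.1 ± 11.2 in C26, a log2 ratio of 0.38 with an error of 0.22, or 1.30-fold higher. The probe at position 394 gave 54.4 ± 6.96 and 65.9 ± 7.32, a log2 ratio of 0.35 with an error of 0.24. Both Shmt1 probes, at separate points of the transcript, were brighter on the C26 array by more than 1 error and less than 2. Both are dim, and under normexp correction, whose added offset shrinks ratios of dim probes, they stood at 0.20 and 0.19. Each of these values was below the error of its probe.

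Mthfd1, the cytosolic enzyme that carries the 3 activities interconverting formyl, methenyl and methylene folate, gave 3025 ± 302 in control and 2849 ± 285 in C26. Its log2 ratio of -0.01 (error 0.20) was the closest to 0 of the 13 measured probes, and it lay between -0.10 and -0.02 under the other settings. Aldh1l1, which oxidises formyl folate to carbon dioxide and so removes carbon units from the cycle, gave 796.1 ± 79.7 and 685.2 ± 68.6 (position 3009, chr6:90549091-90549150). Its log2 ratio was -0.14 with an error of 0.20, less than 1 error from 0.

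In mitochondria, Shmt2 gave 1125 ± 113 in control and 1239.9 ± 124 in C26 (position 1615, chr10:126954811-126954870). Its log2 ratio was 0.21 with an error of 0.20, or 1.16-fold higher. Mthfd2, the dehydrogenase and cyclohydrolase of embryonic and dividing cells, was dim and gave 69.3 ± 8.31 and 55.2 ± 6.41 (position 1190, chr6:83256518-83256577). Its log2 ratio was -0.26 with an error of 0.24, or 1.19-fold lower, on the opposite side of 0 from Shmt2, which acts just before it. Under the same normexp correction, Mthfd2 stood at -0.11.

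Mthfd1l, the mitochondrial formyl-folate synthetase that releases formate to the cytosol, gave different values with its 2 probes. The probe at position 3519 (chr10:6190563-6190622, minus strand) gave 80.8 ± 9.55 in control and 117.2 ± 12.3 in C26. Its log2 ratio was 0.61 with an error of 0.23, or 1.53-fold higher, the highest of the 13 measured probes. The probe at position 3081 gave 30.9 ± 5.59 and 30.1 ± 4.45, a log2 ratio of 0.03 with an error of 0.34. The first lists 2 curated RefSeq transcripts of the gene, and the second lists the same 2 and 1 more. The ratios differed by 0.57 with an error of 0.41, more than 1 error and less than 2, and the 1.5-fold value rests on the probe at position 3519 alone. That value was 0.57 with median scaling, 0.55 with the 75th percentile taken over probes above background and 0.37 with normexp correction, each below 1.5-fold.

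**Figure D2:**
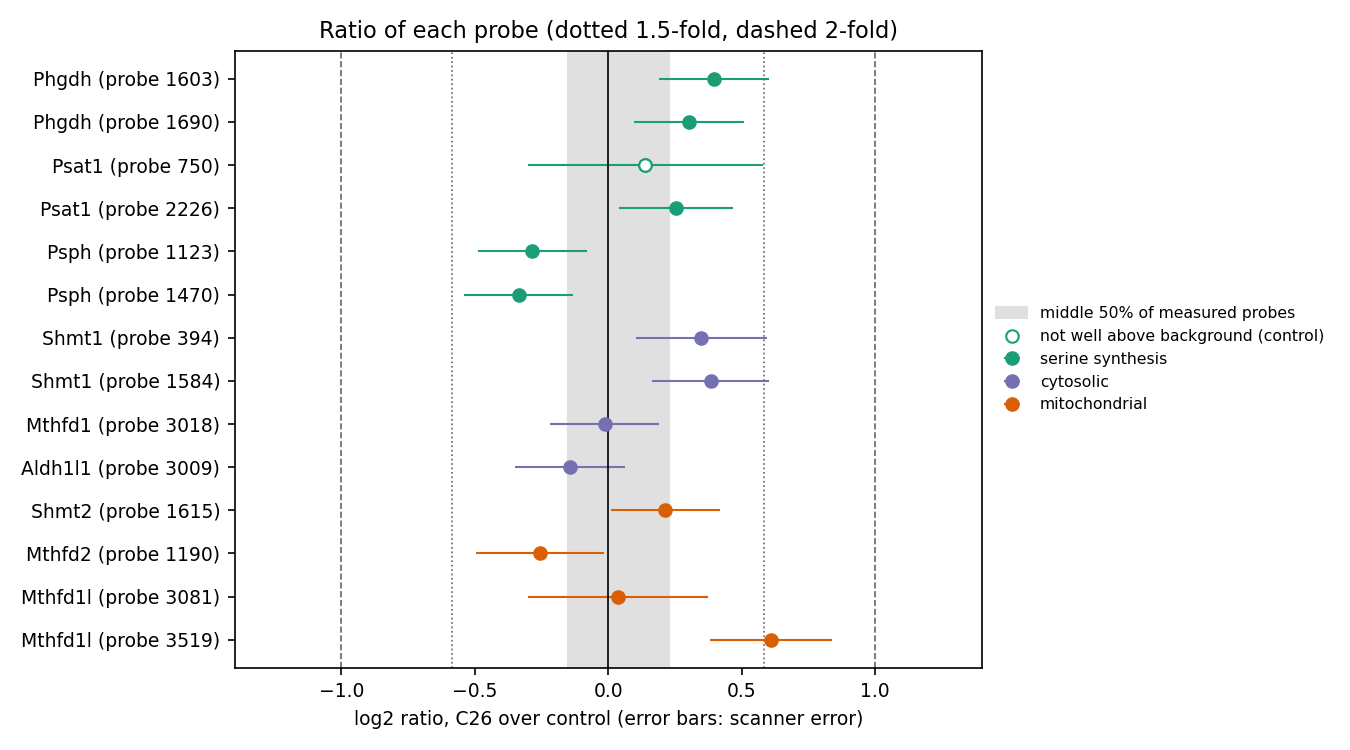
Log2 ratio of C26 over control for the 14 probes, with scanner errors as bars and colours by pathway arm; the grey band is the middle 50% of all measured probes (-0.15 to 0.23) and the open circle the Psat1 probe that control did not show well above background. No probe reaches the dashed 2-fold lines, and 1 Mthfd1l probe lies past the dotted 1.5-fold line.

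In the other genes with both probes measured the ratios lay close together. They differed by 0.09 for Phgdh, 0.05 for Psph and 0.04 for Shmt1. The Psat1 pair differed by 0.11 with an error of 0.49, but its probe at position 750 was not well above background in control. Over the 5106 gene names with at least 2 measured probes, the 2 brightest differed by a median of 0.14, and in 8.11% they differed by at least as much as those of Mthfd1l. Among the 866 whose dimmer probe had a signal similar to that of the dimmer Mthfd1l probe, the median was 0.31 and the share 21.6%. Repeat spots of the same probe, available for 273 probes with at least 8 copies, gave a median SD of 0.07 (control) and 0.06 (C26), which makes 0.09 for the ratio of 1 spot to another. The median scanner error over measured probes was larger, at 0.21.

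**Figure D3:**
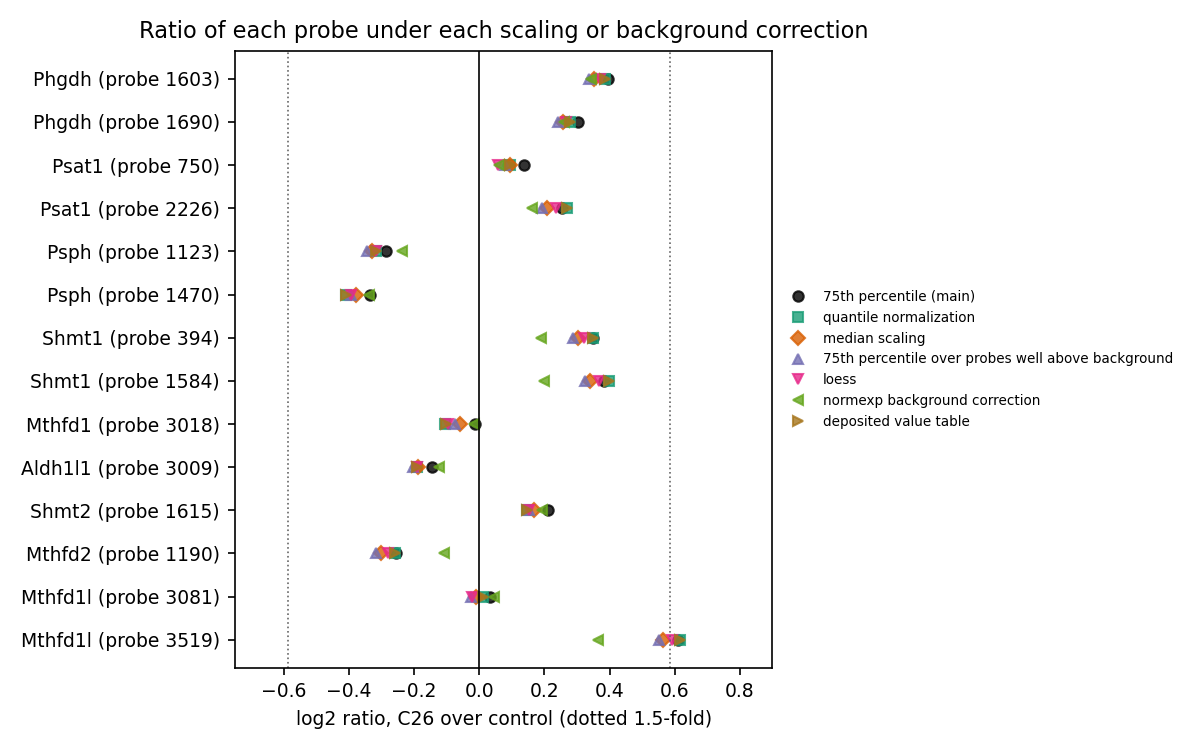
Log2 ratio of the 14 probes under 75th percentile scaling and the 6 other scalings, corrections or sources of values, with dotted lines at 1.5-fold. Among the 13 measured probes the sign turns for the Mthfd1l probe at position 3081 alone, which runs from -0.02 to 0.04.

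As a set, the 9 genes had a median log2 ratio of 0.21 by brightest probe, between Psph at -0.33 and Mthfd1l at 0.61, beside 0.04 over all measured genes. Of the 9, 4 lay above the middle 50% of measured genes (Phgdh, Psat1, Shmt1 and Mthfd1l), 2 below it (Psph and Mthfd2) and 3 within it. The median was 0.10 without Mthfd1l. No arm of the pathway had all its genes on the same side of 0: serine synthesis had 2 genes above 0 and 1 below, the mitochondrial arm likewise, and the cytosolic arm 1 above and 2 below.

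Around the members, 90 further genes of connected pathways were examined in 7 lists, and 83 were measured. Of these, 6 were at least 1.5-fold higher in C26 and 3 at least 1.5-fold lower, or 7.23% and 3.61% against 4.37% and 4.83% of all measured genes, and their median was 0.03. Other folate enzymes had a median of -0.11 over 14 measured genes, 6 above 0 and 8 below. Aldh1l2, the mitochondrial counterpart of Aldh1l1, was lowest at -0.73 (error 0.21), with signals of 187.7 in control and 107.4 in C26, 1.66-fold lower. Mthfd2l, the relative of Mthfd2 found in adult tissue, followed at -0.27. The highest was Gnmt, a glycine methyltransferase, at 0.59. Ftcd passed background in C26 (signal 20.4) but not in control (11.7), with a log2 ratio of 0.88 and an error of 0.58. Amt and Dmgdh passed it on neither array.

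The carriers of folate and serine had a median of 0.07 over 13 genes. Slc38a2, an amino acid transporter that takes up serine, alanine and glutamine, was highest at 0.95 (error 0.20), with signals of 4201 in control and 7738 in C26. Slc6a9, a glycine transporter, followed at 0.46. Folr1, a folate receptor, was lowest at -0.86 but dim (52.5 and 27.6), and stood at -0.32 with normexp correction. Slc38a1, a relative of Slc38a2, had -0.57. The mitochondrial folate carrier Slc25a32 and the mitochondrial serine carrier Sfxn1 stood at 0.07 and -0.0046, within 1 error of 0.

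In the methionine cycle, with a median of 0.04 over 12 genes, the creatine-synthesis methyltransferase Gamt was the 1 gene past 2-fold. Its signal was 3533 in control and 1535 in C26, a log2 ratio of -1.13 with an error of 0.20, and a second probe gave -1.18. Gatm, the preceding step of creatine synthesis, had -0.34, and Ahcy, which clears the by-product of methylation, was highest at 0.34, followed by Mat2b at 0.14. Bhmt2 and Mat1a were not well above background on either array.

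Transsulfuration and glutathione synthesis, listed with the cysteine-degrading enzymes Cdo1 and Csad, had a median of 0.19 over 7 genes. The values ran from Cth at -0.20 and Csad at -0.04 to Cdo1 at 0.43 and Gclm at 0.44, and none was 1.5-fold different. Purine and thymidylate synthesis, the main users of folate carbon, had a median of 0.02 over 15 genes. Impdh2, of guanine nucleotide synthesis, was the 1 past 1.5-fold at 0.61, with a second probe at 0.59, followed by Gmps at 0.25 (its 3 probes ran from -0.24 to 0.41), and the lowest were Dut at -0.40 and Ppat at -0.35. A second Ppat probe gave 0.0049. Glycolytic enzymes on either side of 3-phosphoglycerate had a median of -0.06 over 7 genes, with Eno1 and Pgam2 lowest at -0.31 and -0.23 and Bpgm and Gapdh highest at 0.23 and -0.04.

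Other enzymes and carriers linked to serine or glycine had a median of 0.07 over 15 genes. Alas2, the erythroid enzyme that joins glycine to succinyl-CoA for heme, was 4.96-fold higher in C26 at 2.31 (error 0.20). Alas2 is also an erythroid marker, and all 7 measured erythroid markers were above 0, with a median of 1.66. Tdh, threonine dehydrogenase, stood at 0.96, but its second probe gave -0.59. Serinc3, a membrane protein of the serine incorporator family, stood at 0.67, and its 3 probes lay between 0.52 and 0.69. The lowest were Serinc5 at -0.25 and Alas1 at -0.20, with a second Alas1 probe at 0.07. Sds and Agxt were not measured on both arrays.

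ATF4 and 13 of its known targets outside the members had a median of 0.32 over 13 measured genes, 9 above 0 and 4 below. The list is a selection of targets, and its median depends on which were picked. Of these, 3 were at least 2-fold higher, against 1.25% of all measured genes, and none was 2-fold lower, against 1.15%. Chac1, a glutathione-degrading enzyme, stood at 1.61 (error 0.20), the transcription factor Cebpb at 1.20 and Asns, asparagine synthetase, at 1.08 (error 0.21). Atf3 had 0.85, the amino acid transporter chain Slc3a2 0.69, and Atf4 itself 0.45 with a second probe at 0.31. The lowest were Nupr1 at -0.55 and Ddit3 at -0.29, followed by Atf5 at -0.02 and Trib3 at -0.01. Slc7a11 was not well above background on either array. Asns, 1 of the 3 past 2-fold, had signals of 251.9 in control and 507.5 in C26 and was 2.12-fold higher. On the same arrays Phgdh was 1.23-fold higher, Psat1 1.19-fold higher and Mthfd2 1.19-fold lower. Other genes of the list had small ratios too, with Sesn2 at 0.32, Vldlr at 0.23 and Cebpg at 0.17, while 5 were at least 1.5-fold higher. Whether the members differ from these targets beyond the spread between animals was not tested.

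**Figure D4:**
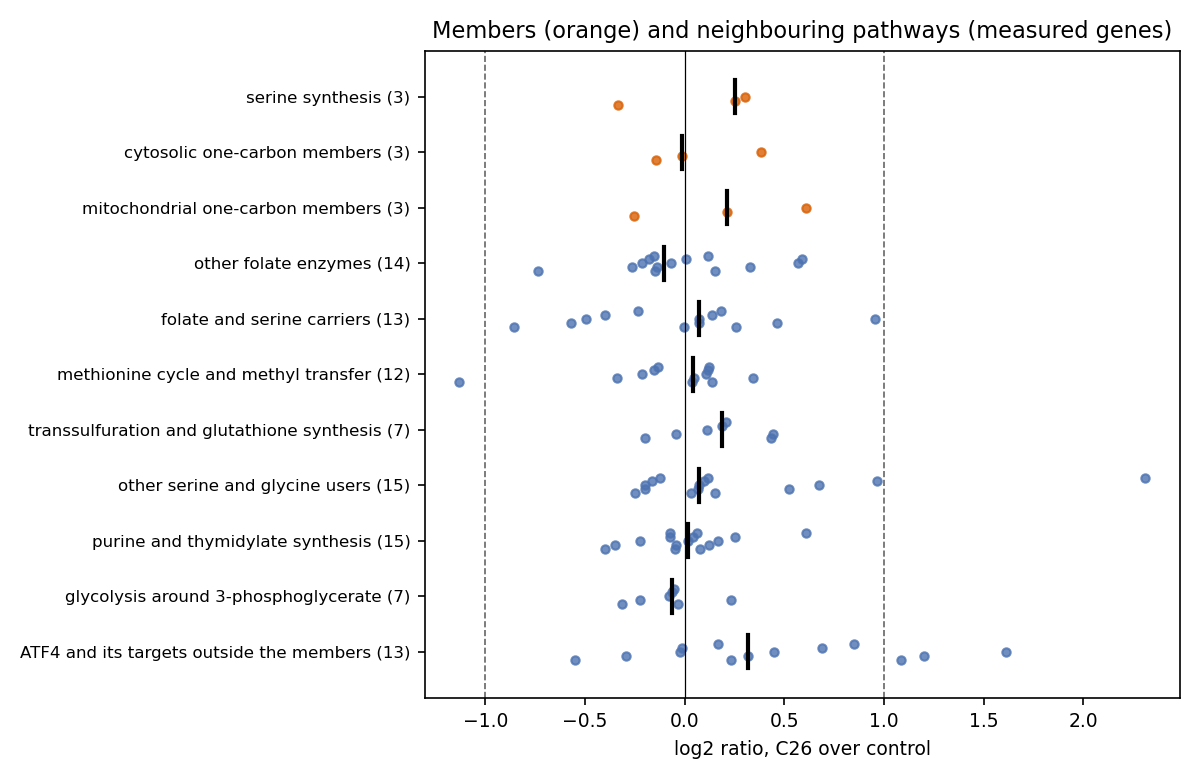
Log2 ratio of C26 over control for the measured members (orange) and for measured genes of neighbouring pathways (blue), 1 point per gene by brightest probe, with the number of genes in brackets, black bars at list medians and dashed lines at 2-fold. The members lie between -0.33 and 0.61, while Chac1, Cebpb and Asns of the ATF4 list and Alas2 among the glycine users lie past 2-fold higher and Gamt past 2-fold lower.

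The promoters were searched for the letters TGATGNAAN, a form of the amino acid response element that ATF4 binds together with C/EBP proteins, on both strands and in windows of 250 bases before to 50 after the gene start (RefSeq, GRCm38.p6). All 9 members had a window, 10 in all, and none held these letters, beside 3.95% of all 32851 windows. At that share, no match in 10 windows is the likelier outcome. Of the 16 windows of the 14 ATF4 list genes, 7 held them, in Asns, Chac1, Atf3, Trib3, Nupr1, Slc7a11 and Vldlr. These include genes with log2 ratios above 0 (Chac1 at 1.61), near 0 (Trib3 at -0.01) and below 0 (Nupr1, the lowest of the list, at -0.55). Cebpb, which was past 2-fold, had no match, nor had Slc3a2 and Atf4. Those of Asns and Chac1 are shown as examples among the genes past 2-fold, with the match in capitals (on the opposite strand for Chac1).
Asns, chr6:7693210-7693252, minus strand: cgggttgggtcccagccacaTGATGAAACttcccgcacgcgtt
Chac1, chr2:119351028-119351076, plus strand: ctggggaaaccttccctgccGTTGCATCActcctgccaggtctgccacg
A match describes these letters alone, and no match says only that they are not in this window. The ATF4 list was made of known targets, so its share of matches is no test of the members.

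Markers of some other cell types lay past 2-fold between the arrays. All 8 fibroblast markers were below 0, from Col3a1 and Col1a1 at -2.00 and -1.81 to Pdgfra and Dcn at -0.39 and -0.32 (median -0.75, summed scaled signal 817.4 in control and 558.8 in C26), as were all 9 measured macrophage markers, from Itgax and Cd68 at -4.26 and -1.35 to C1qa and C1qc at -0.12 and -0.05 (median -0.34, summed 31.6 and 23.1). These are values of the brightest probe, and the 3 Csf1r probes ran from -0.56 to 0.03. The macrophage marker Cd163 was well above background in C26 (15.8) but not in control (9.17). The 7 measured erythroid markers summed to a scaled signal of 1489.8 and 3151, from Bpgm and Hba-a2 at 0.23 and 0.52 to Alas2 and Slc4a1 at 2.31 and 2.43. Of the 8 markers of dividing cells, 5 were measured, with a median of 0.02 and Aurka and Mki67 at -1.05 and -0.47 and Pcna and Mcm3 at 0.04 and 0.37, while Top2a, Ccnb1 and Cdk1 were not measured on both arrays. A second Mki67 probe had the opposite sign, at 0.38. By brightest probe all 7 endothelial markers were above 0, against 56.4% of all measured genes (median 0.24, summed 43.3 and 55.6). They ran from Kdr and Emcn at 0.01 and 0.04 to Vwf at 0.86 and Cldn5 at 1.30, 2.46-fold higher. A second Kdr probe gave -0.63, and Kdr, Cdh5 and Emcn reached -0.09, -0.02 and -0.02 under other settings. Adipocyte markers had a median of 0.17 over 6 genes, from Lep and Plin1 at -0.66 and -0.04 to Fabp4 and Cidec at 0.39 and 0.61 (summed 106.7 and 138.7). Schwann and astroglial markers had a median of 0.13 over 5 measured genes (-0.0028 with no filter), from S100b at -0.52 to Sox10 and Mbp at 0.22 and 0.36 (summed 6.44 and 6.29). A second Mbp probe gave -0.09. Neutrophil markers had a median of 1.17 over 4 measured genes but -0.24 with no filter, and their summed scaled signal was lower in C26 (127.6 and 111.2), with S100a8 at 2.46, S100a9 at 2.35, Camp at -0.02 and Csf3r at -0.26. That sum was almost all Csf3r, whose unscaled signal was 33121 of 33471.5 in control and 26235 of 27736 in C26. Hepatocyte markers had a median of 1.42 over 4 (summed 5.63 and 12.7), with Alb at 1.86, Fgb at 1.80, Serpina1a at 1.04 and Ttr at 0.34. The part of any of these cells in the values of the 9 enzymes was not tested.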

How the data were processed

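Per the file headers, the scans were quantified with version 10.7.1.1 of Agilent Feature Extraction, while the submitters' processing notes list 9.5.1.1. The deposited scanner files hold linear spot intensity, background-subtracted and detrended within the array, with positions on mm9. A deposited table of intensity per probe, for which the sources used here state no method, had a median of 19.75 in both columns, and 99.9% of its values lay within 0.01 (log2) of quantile-normalized processed signals. It is on a linear scale and not centred, and it served as an alternative.

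Outlier spots were left out (110 control, 91 C26), the spots of a probe averaged on the log2 scale, and each array's 75th percentile over non-control probes subtracted. The log2 ratio is C26 minus control. A surrogate stood in for 31.9% and 25.6% of spots, so low signals are less precise. Each gene was read from its brightest probe, and is called measured if both arrays had that probe well above background. The number of arrays limits precision, and no p-value is given.

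Members and gene lists were chosen with earlier results of these data known. Named genes are all members, the 2 highest and 2 lowest of each pathway list with every gene past 1.5-fold, and of marker lists the same ends where cited; others were named after their values were seen. The values of 2 genes that this rule names are not reported here. The markers Adgre1 and Ncmap are not gene names on this array. The computation was tested on simulated data. Alternatives were normexp (offset 50), quantile, median and 75th percentile scaling over probes above background, loess (span 0.3), the deposited table, no filter or a stricter filter (signal of at least 50), and the mean over probes. Software was Python 3.11.15, numpy 2.4.6, pandas 2.3.3, statsmodels 0.14.6, matplotlib 3.10.9, R 4.3.3 and limma 3.58.1.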

Additional observations from a re-analysis of the deposited data

How the results depend on the processing

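The median of the 9 enzymes lay between 0.15 and 0.21 under every scaling, correction, filter and probe rule, and at 0.10 without Mthfd1l, an alternative chosen after seeing the data. Of 84 values of single probes under 6 alternatives, 83 lay within the scanner error of the reported value; the other was 0.37 for Mthfd1l at position 3519 with normexp correction. No probe was 2-fold different with any of them. The count past 1.5-fold, 1 as reported, was 0 with median scaling, 0 with normexp correction and 0 with the 75th percentile taken over probes above background. Genes at least 2-fold higher and lower numbered 246 and 227, and 132 and 65 with normexp correction (67.0% higher, against 52.0% as reported and 43.1% to 47.5% under the other scalings), 1579 and 1320 with no filter, and the lower 140 with the stricter filter; the filters change how many genes are tested, and the cause of the normexp counts was not tested. The median of neutrophil markers was 0.78 with normexp correction and -0.24 with no filter, and that of hepatocyte markers 1.05 with normexp correction. No paired analysis was possible because each group has 1 array.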
